A study of Mus musculus with 6 samples.

Results

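The 32 genes described here are p53 and its known target genes, read in endothelial cells of the neonatal mouse lung after deletion of Smad4. They were picked by name as the rows of the deposited count table that carry one of 32 listed symbols, out of 24951 genes in the table, and all 32 were found and had enough counts to be tested. The list was drawn up with values of these libraries known, so what follows describes the genes and is no independent evidence that p53 targets as a class changed. The 3 mutant libraries came from pups at postnatal day 5 with genotype Smad4 f/f;Cdh5-CreERT2, in which a tamoxifen-inducible Cre recombinase is made from the promoter of an endothelial cadherin gene. The 3 control libraries came from Smad4 f/f pups of the same age without Cre, which the genotype label calls wildtype. All 6 libraries therefore came from mice with floxed Smad4, Cre was present in the mutants alone, and an effect of Cre cannot be told apart from one of Smad4 loss. After enzymatic digestion of the lung, cells were captured on beads with an antibody to CD31, an endothelial surface protein, and polyadenylated RNA was sequenced. The labels call the libraries independent biological samples, name the mice HHTf/f and HHTiECKO in 1 sentence, and do not say how tamoxifen was given. The 6 column names of the count table share a tag, followed by a different number for each library, that the labels do not explain, so whether the libraries are single pups of the same litter is not known here. The p-values measure the spread between these libraries.

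p53, encoded by Trp53 in the mouse, is a transcription factor that is held at a low level by the ubiquitin ligase Mdm2 and is stabilised after DNA damage and other stress. It binds response elements made of paired decamers near its target genes. Its targets stop the cell cycle, promote cell death, help to repair DNA, adjust metabolism, and feed back on p53 itself. p53 activity is controlled largely at the level of the protein, which these data do not measure.

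Reads assigned to genes came to 16041786 to 20172318 in the mutant libraries and 14093564 to 21113926 in the control libraries. Smad4 itself (chromosome 18, 73639009 to 73703780 of GRCm38) had 88.8, 72.9 and 94.2 CPM (counts scaled to a common library size) in mutant replicates 1, 2 and 3, against 188, 177 and 181 CPM in control replicates 1, 2 and 3, a log2 fold change of -1.09 (SE 0.10, edgeR adjusted p = 0.000604). Counts over the whole gene can include what remains of a recombined transcript. Endothelial markers were abundant in all libraries: Pecam1, which encodes CD31, averaged 1719 CPM in the mutants and 1570.0 CPM in the controls. Of 10 such markers edgeR called 0 higher and 2 lower, beside 1.93% and 1.34% of all tested genes. The 2 were Tek and Flt1, with log2 fold changes of -0.50 and -0.40. All mutants lay above all controls in 2 of the 10 markers and below in 3, beside 11.6% and 9.04% of all tested genes. RNA of other cells was present too. The summed level was 2829 to 3216 CPM in mutant and 2167 to 3988 CPM in control libraries for 9 epithelial markers, and 743 to 814 CPM in mutant and 748 to 915 CPM in control libraries for 8 macrophage and monocyte markers. It was 800.2 to 1228 CPM in mutant and 696 to 1082 CPM in control libraries for 7 fibroblast markers, and 256 to 385 CPM in mutant and 220.1 to 325 CPM in control libraries for 7 smooth muscle and pericyte markers. These groups overlapped. The sum was 69.5 to 103 CPM in mutant and 40.2 to 102 CPM in control libraries for 6 neutrophil markers, 63.8 to 83.6 CPM in mutant and 70.1 to 95.5 CPM in control libraries for 5 megakaryocyte and platelet markers, and 50.9 to 55.7 CPM in mutant and 32.6 to 72.8 CPM in control libraries for 4 mesothelial markers, again with overlap. It was 152 to 208 CPM in mutant and 133 to 148 CPM in control libraries for 8 lymphocyte markers, and 6.53 to 8.88 CPM in mutant and 10.2 to 10.5 CPM in control libraries for 6 erythroid markers, in both cases without overlap, and all 4 globin genes of the erythroid list were at 0. Of these 9 lists of other cell types, 0 genes were called by edgeR, beside 1.93% higher and 1.34% lower of all tested genes. At an unadjusted p under 0.05, 2 were higher (lymphocyte) and 2 lower (macrophage and erythroid), beside 7.55% and 6.48% of all tested genes. DESeq2 called 1, the B cell gene Ms4a1, higher, and limma-voom called 0. Their part in the results below was not tested. In bulk RNA, fewer cells of a type and less RNA per cell cannot be told apart. Mutant replicate 1 and control replicate 1 had Y-linked counts and almost no Xist, so each group held 1 male and 2 female libraries.

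The p53 response elements near the starts of these genes are shown first, because the element is the sequence that p53 binds. Most of the genes searched held no close match in the window. RefSeq promoters, from 250 bases before to 50 after an annotated start on GRCm38.p6, were given for 24 of the 32 genes. They were searched for the 10-base p53 consensus with no mismatch and for the 20-base p53 response element, which is that consensus 2 times with no spacer. Both are their own reverse complement, so a match on one strand is a match on the other, and a 20-base match can contain a 10-base match. Of the 24 genes, 3 held the 20-base element with at most 1 mismatch, 12.5% of them against 0.0814% of 27025 genes with a promoter entry. The 10-base consensus was found in 10 of the 24 genes, 41.7% against 9.55% of all. Mismatches were allowed only outside the C and G of each decamer, which had to match. The 32 genes were listed as known p53 targets, so higher shares than over all genes are no independent evidence. A match is a description of the letters and no proof of binding, and elements farther from the start were not searched.

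The 3 close matches are shown here with the fixed C and G of each decamer in capitals. They lie in the feedback genes Ccng1 (chr11:40755462-40755481, minus strand, first base 195 before the start) and Gtse1 (chr15:85859945-85859964, plus strand, first base 1 before the RefSeq start and inside the span of the gene in GENCODE M21), and in the arrest gene Cdkn1a (chr17:29090928-29090947, plus strand, first base 51 before the upstream of its annotated starts).
Ccng1: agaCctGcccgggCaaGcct
Gtse1: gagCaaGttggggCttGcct
Cdkn1a: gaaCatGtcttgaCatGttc
Looser matches, with 3 mismatches, were found in 5 further genes: Aen and Bbc3, which rose, and Trp53, Tigar and Sesn1, which did not pass. With these, 3 of the 7 called genes with a promoter entry and 5 of the 17 that did not pass held a match, while the 10-base consensus was found in 2 of the 7 called genes and 8 of the 17 others. The matches of the 2 genes that rose are shown as examples of this grade. They lie at Aen (chr7:78895937-78895956, plus strand) and Bbc3 (chr7:16309486-16309505, plus strand), and 1.63% of all genes held a match of this grade or better.
Aen: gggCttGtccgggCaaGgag
Bbc3: ctgCaaGccccgaCttGtcc

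The sequence around the element is given for Ccng1, which rose, and Cdkn1a, which did not pass the test, with the element in capitals. They are followed by the same stretch of Trp53i11 and Eda2r, the 2 genes with the largest increase, in which no such element was found. Each runs from 250 bases before the start to the last base before an annotated exon. The positions are chr11:40755312-40755536 on the minus strand for Ccng1, chr17:29090729-29090975 on the plus strand for Cdkn1a, chr2:93187298-93187547 on the plus strand for Trp53i11 and chrX:97377217-97377459 on the minus strand for Eda2r.
Ccng1: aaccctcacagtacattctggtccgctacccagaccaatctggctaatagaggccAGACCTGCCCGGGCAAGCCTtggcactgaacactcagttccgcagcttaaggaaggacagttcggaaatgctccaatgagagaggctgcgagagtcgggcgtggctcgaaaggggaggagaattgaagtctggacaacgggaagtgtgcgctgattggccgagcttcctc
Cdkn1a: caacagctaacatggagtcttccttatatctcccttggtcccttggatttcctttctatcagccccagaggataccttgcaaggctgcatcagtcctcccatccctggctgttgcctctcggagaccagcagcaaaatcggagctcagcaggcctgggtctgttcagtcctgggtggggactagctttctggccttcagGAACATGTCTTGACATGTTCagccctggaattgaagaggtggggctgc
Trp53i11: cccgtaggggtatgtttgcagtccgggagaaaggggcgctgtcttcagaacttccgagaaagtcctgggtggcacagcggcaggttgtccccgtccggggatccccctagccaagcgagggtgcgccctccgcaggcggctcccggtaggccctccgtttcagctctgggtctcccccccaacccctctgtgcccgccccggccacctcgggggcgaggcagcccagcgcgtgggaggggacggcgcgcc
Eda2r: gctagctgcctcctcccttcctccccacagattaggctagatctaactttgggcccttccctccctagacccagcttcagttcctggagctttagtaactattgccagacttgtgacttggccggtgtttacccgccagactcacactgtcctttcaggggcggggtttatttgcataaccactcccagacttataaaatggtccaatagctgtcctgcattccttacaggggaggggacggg

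Of the 32 genes, 8 were higher in mutant than in control libraries: Eda2r, Trp53i11, Dglucy, Zmat3, Bbc3, Aen, Ccng1 and Phlda3. None was lower. The counts were 8 and 0 with edgeR's quasi-likelihood test at a Benjamini-Hochberg adjusted p under 0.05 over 14934 tested genes, of which 3.27% were called, 1.93% higher and 1.34% lower. These counts are given as a description, because the genes were chosen with this comparison known. DESeq2 called 10 higher and 0 lower, against 3.03% and 2.13% of all genes it tested, and limma-voom 7 and 0, against 1.75% and 1.21%. At an unadjusted p under 0.05, 18 of the 32 genes were higher and 2 lower, where 7.55% and 6.48% of all tested genes were. The 3 mutant libraries lay above the 3 control libraries in 14 of the 32 genes and below them in 1, against 11.6% and 9.04% of all tested genes. The median log2 fold change of the 32 genes was 0.31, and 25 of them were positive. Over all tested genes the median was -0.0024, with quartiles at -0.15 and 0.14. By function, 5 of 13 cell death genes, 1 of 5 arrest genes, 1 of 4 genes of p53 and its feedback, 1 of 5 metabolism genes and 0 of 5 DNA repair genes were called. Trp53i11 was counted with the cell death genes, although its function is poorly known. Whether the functions differ from each other was not tested.

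**Figure D1:**
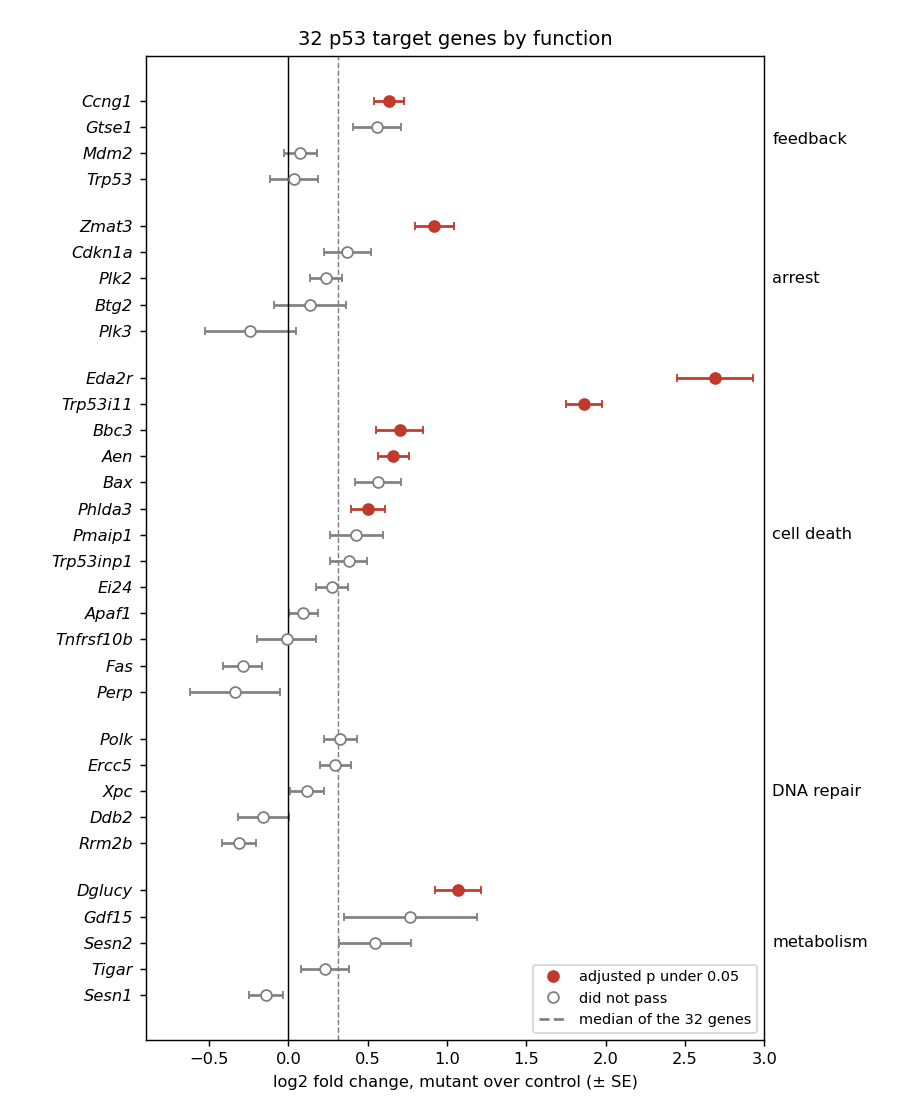
Log2 fold change of mutant over control for each of the 32 genes, grouped by function, with the SE as bars. Filled points are the 8 genes at an adjusted p under 0.05, open points the 24 that did not pass, and the dashed line the median of 0.31.

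The gene for p53 itself did not pass the test. Trp53 (chromosome 11, 69580359 to 69591873, plus strand) had 185, 162 and 156 CPM in mutant replicates 1, 2 and 3, against 124, 182 and 185 CPM in control replicates 1, 2 and 3. The groups overlapped, and control replicate 1 was the lowest library of all. With an SE of 0.15, the log2 fold change of 0.036 did not pass (edgeR adjusted p = 0.942), and 2 SE on either side ran from -0.27 to 0.34.

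Among the feedback genes, Ccng1 rose and Mdm2 did not pass. Mdm2 encodes the ubiquitin ligase that degrades p53 and is itself a p53 target. It stood at 111, 123 and 104 CPM in the mutants, against 95.7, 118 and 108 CPM in the controls. The groups overlapped, and the log2 fold change of 0.075 (SE 0.10, edgeR adjusted p = 0.800) had 2 SE on either side from -0.13 to 0.28. Ccng1 encodes cyclin G1, which recruits a phosphatase to Mdm2. Ccng1 (chromosome 11, 40748552 to 40755311) had 77.5, 76.6 and 70.9 CPM in the mutants, against 50.5, 45.1 and 49.3 CPM in the controls. Every mutant library lay above every control library. The group means were 74.98 ± 3.58 and 48.3 ± 2.85 CPM (SD, n = 3 each), 1.55-fold higher in the mutants, with a log2 fold change of 0.63 and an SE of 0.09 (edgeR, adjusted p = 0.00463). Gtse1, whose product binds p53 and is made in the S and G2 phases of the cell cycle, stood at 21.6, 24.7 and 27.6 CPM in the mutants and 15.03, 15.3 and 19.8 CPM in the controls. The groups did not overlap, but the gene did not pass (log2 fold change 0.56, SE 0.15, edgeR adjusted p = 0.0838), and it passed in DESeq2, with the replicate block and without control replicate 3 (adjusted p down to 0.025).

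Of the 5 arrest genes, Zmat3 rose and the others did not pass. Zmat3 encodes a zinc finger protein that binds RNA. Zmat3 (chromosome 3, 32334792 to 32366014) had 50.2, 50.8 and 39.7 CPM in the mutants, against 26.6, 24.6 and 23.1 CPM in the controls. All mutant libraries were well above the controls, with mutant replicate 3 the lowest of them. The means were 46.9 ± 6.24 and 24.8 ± 1.71 CPM (SD, n = 3 each), 1.89-fold higher in the mutants (log2 fold change 0.92, SE 0.12, edgeR adjusted p = 0.00279). Cdkn1a encodes the kinase inhibitor p21, the best known arrest factor downstream of p53. It stood at 249.8, 268 and 201 CPM in the mutants, against 154, 181 and 221 CPM in the controls. Mutant replicate 3 lay below control replicate 3, so that the groups overlapped, and the log2 fold change of 0.37 (SE 0.15) did not pass (edgeR adjusted p = 0.296). Plk2, a polo-like kinase gene, had a log2 fold change of 0.24 (adjusted p = 0.315 in edgeR). Btg2, an antiproliferative gene, stood at 479, 423 and 285 CPM in the mutants and 305, 459 and 316 CPM in the controls. Plk3, another polo-like kinase gene, stood at 95.6, 83.4 and 76.6 CPM in the mutants and 60.3, 142 and 100.2 CPM in the controls. In Btg2 both groups spread widely, in Plk3 the controls covered the whole range of the mutants, and the log2 fold changes were 0.14 for Btg2 and -0.24 for Plk3 (edgeR adjusted p = 0.841 and 0.771).

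**Figure D2:**
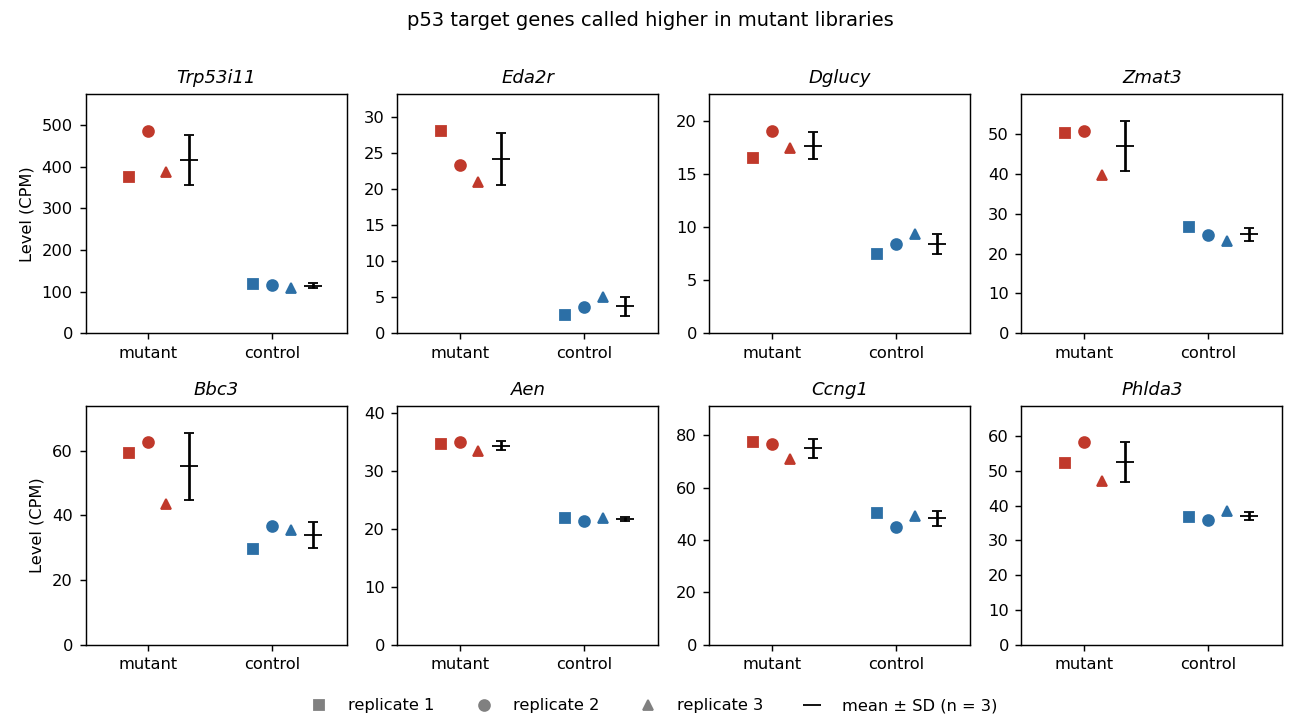
Level in CPM of the 8 genes called higher, with 1 panel per gene, an axis from 0, 3 mutant libraries on the left and 3 control libraries on the right, and the mean ± SD beside each group. In each panel every mutant library lies above every control library, as in Eda2r with 21.0 to 28.1 CPM against 2.52 to 5.06 CPM.

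The genes grouped under cell death, where Trp53i11 was placed, held the 2 largest differences of the 32. Eda2r encodes a receptor of the tumour necrosis factor family that binds a form of ectodysplasin. Eda2r (chromosome X, 97333840 to 97377216) had 28.1, 23.4 and 21.0 CPM in the mutants, against 2.52, 3.63 and 5.06 CPM in the controls. The lowest mutant library was more than 4 times the highest control library. The means were 24.2 ± 3.61 and 3.74 ± 1.28 CPM (SD, n = 3 each), 6.45-fold higher in the mutants, with a log2 fold change of 2.69 and an SE of 0.24 (edgeR, adjusted p = 0.000604). The gene is on the X chromosome, and with the 2 male libraries left out it had a log2 fold change of 2.33. Trp53i11, named in human cells as a transcript induced by p53 and of poorly known function, had 376.5, 487 and 387 CPM in the mutants, against 119, 116 and 108 CPM in the controls. The groups were far apart, and mutant replicate 2 was the highest. Trp53i11 (chromosome 2, 93187548 to 93201759) was 3.64-fold higher in the mutants and had the second smallest p-value of all 14934 tested genes (edgeR, adjusted p = 5.35e-05).

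The other 3 cell death genes that rose differed less. Bbc3 encodes PUMA, which binds and blocks the survival members of the BCL2 family. Bbc3 (chromosome 7, 16308393 to 16318205) had 59.3, 62.7 and 43.4 CPM in the mutants, against 29.4, 36.8 and 35.5 CPM in the controls. Mutant replicate 3 was nearest to the controls. The difference was 1.63-fold (log2 fold change 0.70, SE 0.15, edgeR adjusted p = 0.0343). Aen encodes a nuclease that digests DNA in dying cells. Aen (chromosome 7, 78895854 to 78911209) had 34.7, 35.0 and 33.5 CPM in the mutants, against 21.9, 21.4 and 21.9 CPM in the controls. Its libraries varied least within groups among the 32 genes, and it was 1.58-fold higher in the mutants (log2 fold change 0.66, SE 0.10, edgeR adjusted p = 0.00485). Phlda3 encodes a protein that opposes the survival kinase Akt. Phlda3 (chromosome 1, 135766119 to 135769136) had 52.3, 58.3 and 47.0 CPM in the mutants, against 36.8, 35.9 and 38.4 CPM in the controls. The groups did not overlap, and the difference was 1.42-fold (log2 fold change 0.50, SE 0.11, edgeR adjusted p = 0.0297). The calls of Bbc3 and Phlda3 ended without any one library other than mutant replicate 3 and in the female libraries alone (adjusted p up to 0.177 for Bbc3 and 0.137 for Phlda3), that of Bbc3 also in limma-voom and that of Phlda3 also with the replicate block.

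The remaining 8 cell death genes did not pass. Bax encodes the protein that opens the outer mitochondrial membrane. It stood at 72.1, 97.2 and 65.5 CPM in the mutants, against 51.7, 49.7 and 57.0 CPM in the controls, without overlap (log2 fold change 0.56, SE 0.14, edgeR adjusted p = 0.0744). It passed in DESeq2, with no low-count filter and without mutant replicate 3 (adjusted p down to 0.00914). An annotated gene on the same strand shares 12.2% of the exon length of Bax, so reads of the shared stretch may not be separated. The TruSeq v2 kit does not mark strand, so the same holds for genes that overlap on opposite strands. Pmaip1, the gene of the BCL2 antagonist NOXA, Trp53inp1, a gene linked to autophagy and cell death, and Ei24, a gene of the endoplasmic reticulum, had log2 fold changes of 0.43, 0.38 and 0.27 (edgeR adjusted p = 0.273, 0.146 and 0.246). Apaf1, the scaffold of the apoptosome, had one of 0.094. The death receptor genes Fas and Tnfrsf10b and the junction gene Perp had values of -0.29, -0.011 and -0.34 (edgeR adjusted p = 0.324, 0.986 and 0.652). Fas stood at 38.2, 30.8 and 30.0 CPM in the mutants and 42.4, 42.2 and 36.4 CPM in the controls, so that only the highest mutant and the lowest control library crossed.

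**Figure D3:**
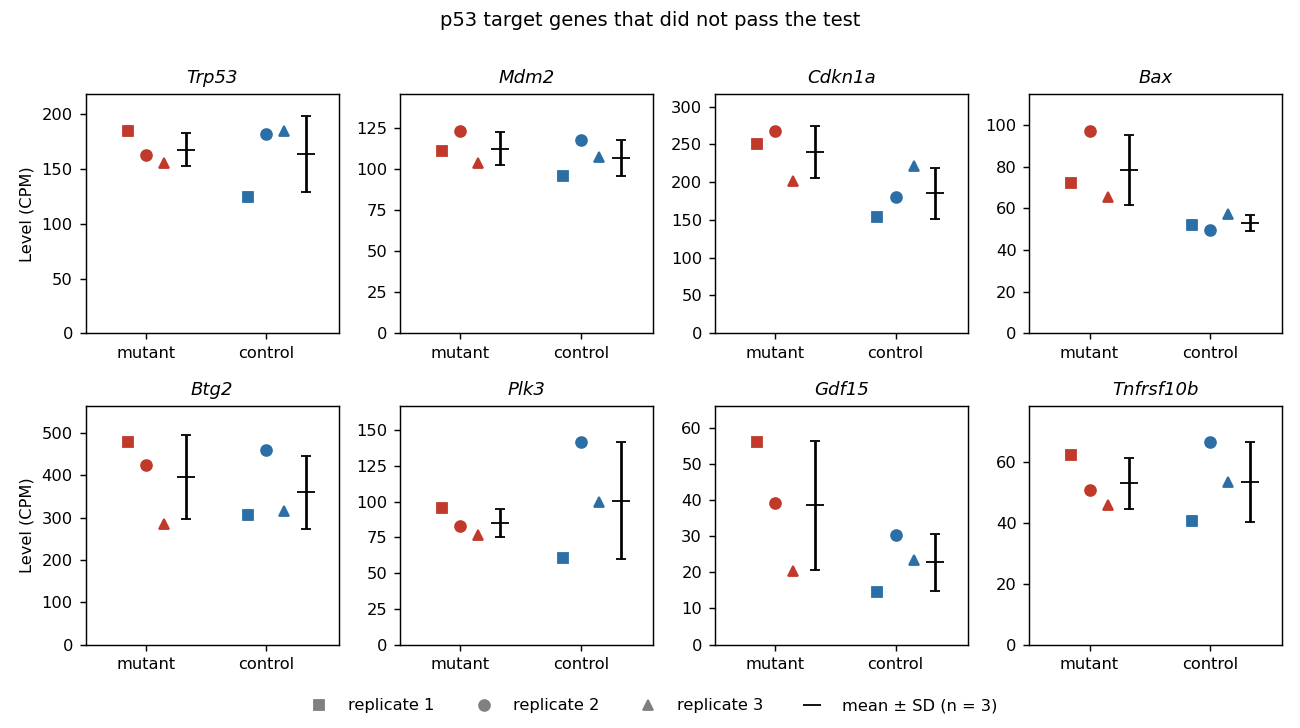
Level in CPM of 8 genes that did not pass, with mutant libraries on the left and control libraries on the right of each panel, an axis from 0 and the mean ± SD beside each group. The groups overlap in each panel except Bax, where the mutants hold 65.5 to 97.2 CPM and the controls 49.7 to 57.0 CPM.

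None of the 5 DNA repair genes was called by edgeR, DESeq2 or limma-voom. Over all tested genes, edgeR called 1.93% higher and 1.34% lower, so few calls would be looked for among 5 genes. At an unadjusted p under 0.05 there were 2 higher and 1 lower of the 5, where 7.55% and 6.48% of all tested genes were. Polk, a polymerase gene for bypass of damaged bases, stood at 32.01, 31.5 and 33.2 CPM in the mutants, against 24.0, 25.6 and 27.5 CPM in the controls. Ercc5, a nuclease gene of nucleotide excision repair, stood at 34.8, 39.1 and 35.8 CPM in the mutants, against 30.5, 28.8 and 30.1 CPM in the controls. In both genes all mutant libraries were above all controls by a small step, with log2 fold changes of 0.33 for Polk and 0.29 for Ercc5 (edgeR adjusted p = 0.149 and 0.181). Rrm2b encodes a subunit of ribonucleotide reductase that supplies nucleotides for repair. It stood at 23.2, 21.3 and 25.2 CPM in the mutants, against 28.8, 27.6 and 30.1 CPM in the controls, and was the single gene of the 32 with all mutants below all controls (log2 fold change -0.31, SE 0.11, edgeR adjusted p = 0.211). The damage sensor genes Xpc and Ddb2 had log2 fold changes of 0.12 and -0.16. For Ddb2, 23.8% of its exon length also lies in exons of Acp2 on the other strand, so its reads may be mixed or lost.

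Of the 5 metabolism and stress genes, Dglucy rose. Dglucy encodes D-glutamate cyclase, a mitochondrial enzyme. Dglucy (chromosome 12, 100779057 to 100896981) had 16.5, 19.1 and 17.5 CPM in the mutants, against 7.47, 8.40 and 9.40 CPM in the controls. The groups were well apart, and the difference was 2.10-fold (means 17.7 ± 1.30 and 8.42 ± 0.969 CPM, SD, n = 3 each; log2 fold change 1.07, SE 0.15, edgeR adjusted p = 0.00322). Gdf15, a secreted stress cytokine gene, stood at 56.1, 39.2 and 20.4 CPM in the mutants, against 14.6, 30.3 and 23.3 CPM in the controls. Its mutant libraries differed from each other more than those of any other of the 32 genes, mutant replicate 3 lay inside the control range, and the log2 fold change of 0.77 had an SE of 0.42 (edgeR adjusted p = 0.490). It was 0.39 without mutant replicate 1, 1.08 without mutant replicate 3 and 0.15 in the female libraries alone. Sesn2, a stress-induced inhibitor of growth signaling, stood at 66.8, 69.7 and 50.8 CPM in the mutants, against 28.6, 50.1 and 49.9 CPM in the controls (log2 fold change 0.55, SE 0.23, edgeR adjusted p = 0.338). Its groups were separated by less than 1 CPM. Its relative Sesn1 and Tigar, a phosphatase gene of sugar metabolism, had log2 fold changes of -0.14 and 0.23 and did not pass.

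**Figure D4:**
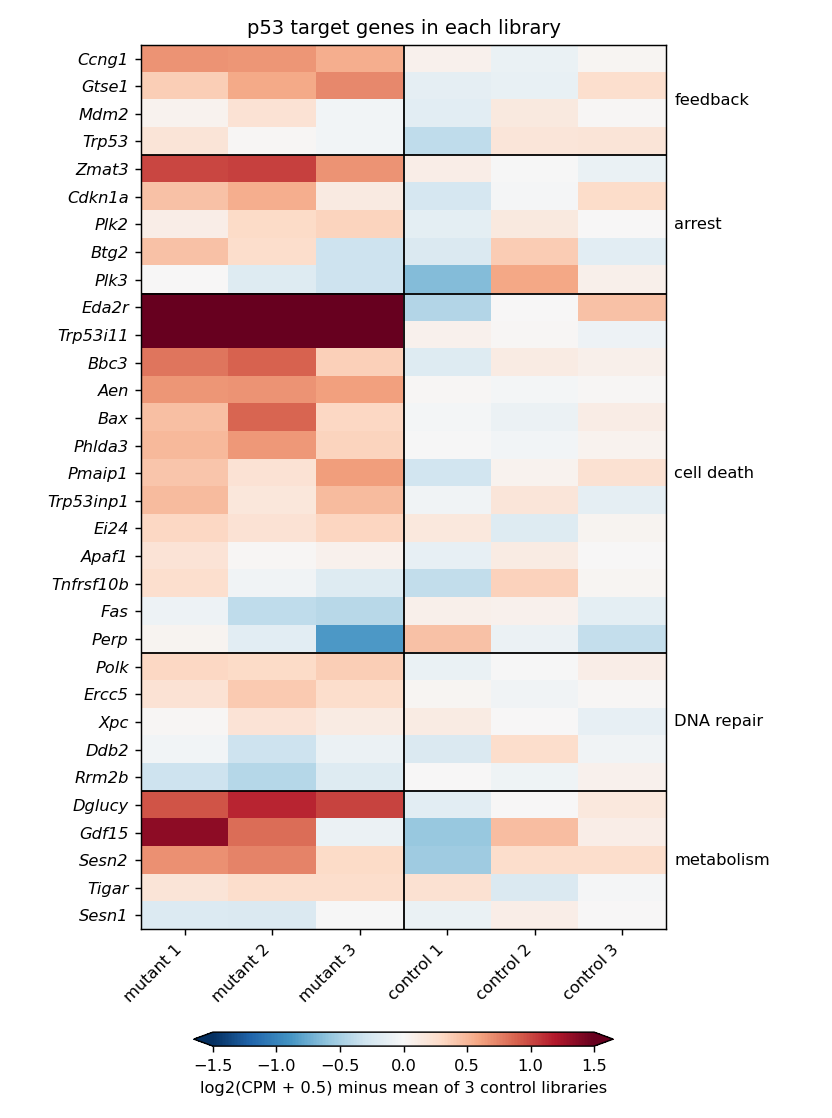
Level of each gene in each library as log2(CPM + 0.5) minus the mean of the 3 control libraries, with mutant columns on the left, control columns on the right and genes grouped by function. The colour scale ends at 1.5 on either side, which Eda2r and Trp53i11 exceed in every mutant library.

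Within groups, the 32 genes varied about as much as other genes, with a median pooled SD of 0.16 on the log2 scale, against 0.16 over all tested genes. The most variable were Gdf15, Plk3, Perp, Sesn2 and Btg2. In 7 genes, Mdm2, Btg2, Plk3, Bbc3, Tnfrsf10b, Sesn2 and Gdf15, mutant replicate 3 was the lowest mutant, control replicate 1 the lowest control and control replicate 2 the highest control. Of these, Bbc3 was called and the other 6 were not. The summed level of 20 immediate early genes, which tissue digestion is known to raise, followed the same order: 9510, 9653 and 7986 CPM in mutant replicates 1, 2 and 3, against 8153, 10506 and 8724 CPM in control replicates 1, 2 and 3. The groups overlapped in this sum. In summed CPM, where abundant genes weigh most, the order was not particular to that list. The sum of the 32 genes had it too, at 3522, 3644 and 3247 CPM in the mutants and 2407, 2980 and 2720 CPM in the controls. So had the sums of the p53 regulators, the further p53 targets, the integrated stress response genes, the other BCL2 family genes and the neutrophil markers. None of the 20 immediate early genes was called by edgeR, beside 1.93% higher and 1.34% lower of all tested genes. DESeq2 called 1 (Egr1, lower) and limma-voom 0. At an unadjusted p under 0.05, 0 of the 20 were higher and 2 lower, where 7.55% and 6.48% of all tested genes were. The part of tissue digestion in the levels of the 7 genes was not tested.

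Levels of different genes can be compared only per length. As RPKM, which is CPM per kilobase of annotated exon, the 32 genes had a median of 11.1 in control libraries, against 6.04 over the 14778 tested genes with a length. In control libraries the highest were Plk2 with 171 RPKM, Btg2 with 131 RPKM and Cdkn1a with 52.2 RPKM, and the lowest were Eda2r with 0.635 RPKM, Dglucy with 1.83 RPKM and Zmat3 with 2.17 RPKM. The 3 genes with the lowest level were all called, and the 6 with the highest were not. The next lowest, Tigar with 3.155 RPKM and Rrm2b with 3.158 RPKM, were not called. The called genes Phlda3, Bbc3 and Ccng1, with 23.75, 15.98 and 13.75 RPKM, lay above the median of the 32, as did Trp53i11. The control level is also the denominator of the fold change, and a relation between level and call was not tested. Trp53i11 was the exception to a low starting level among the largest differences, with 112.9 RPKM in mutant and 31.0 RPKM in control libraries.

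**Figure D5:**
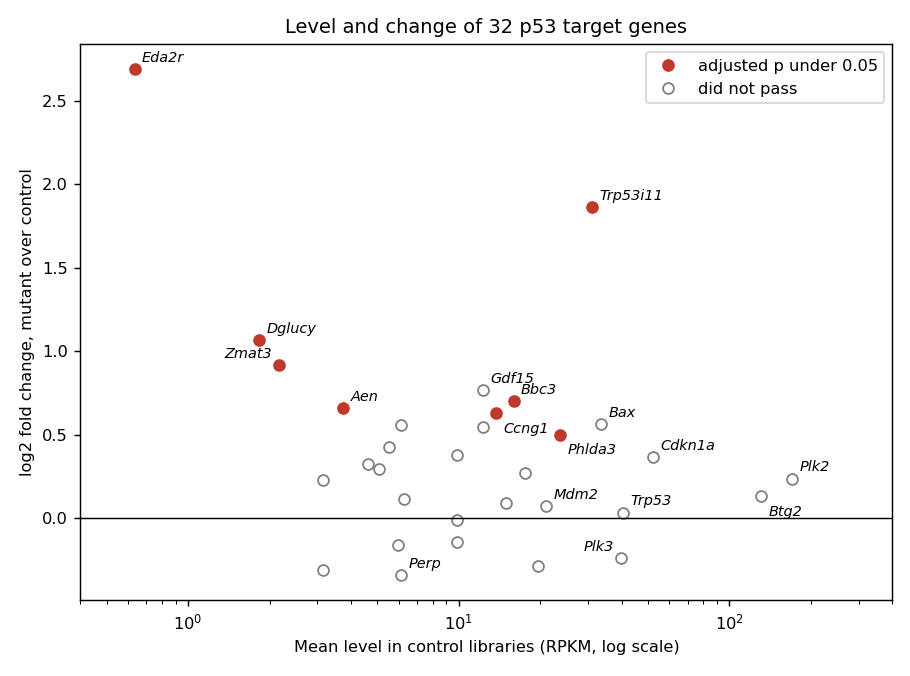
Log2 fold change of mutant over control against the mean level in control libraries (RPKM, log axis) for the 32 genes, with the 8 called genes filled. Eda2r lies at the lower end of the level axis with 0.635 RPKM, and Plk2 at the upper end with 171 RPKM and a log2 fold change of 0.24.

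Other genes of the pathway were read from lists drawn up by name, like the 32, with some values of these libraries known. Of 30 regulators of p53, 27 were tested, 1 was higher, 1 was lower and 25 did not pass, where 1.93% of all tested genes were called higher and 1.34% lower. At an unadjusted p under 0.05 there were 5 higher and 2 lower, where 7.55% and 6.48% of all tested genes were. The list had a median log2 fold change of -0.074. Hipk2, a kinase gene whose product phosphorylates p53, had 70.9, 64.0 and 64.8 CPM in the mutants, against 101, 115 and 100.2 CPM in the controls, a log2 fold change of -0.66 (SE 0.09, edgeR adjusted p = 0.00377). Daxx, which encodes a partner of Mdm2 and a histone chaperone, had 83.5, 126 and 121 CPM in the mutants, against 43.7, 64.1 and 55.4 CPM in the controls, a log2 fold change of 1.02 (SE 0.19, edgeR adjusted p = 0.0247). Each of these genes had non-overlapping groups. Mdm4, the partner of Mdm2 in holding p53 back, had a log2 fold change of -0.39 (edgeR, adjusted p = 0.270). The damage kinase genes Atm and Atr had values of -0.17 and -0.21 and did not pass.

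Of 42 further p53 targets, 41 were tested, 5 were higher, 0 lower and 36 did not pass, beside 1.93% and 1.34% of all tested genes. At an unadjusted p under 0.05 there were 9 higher and 1 lower, beside 7.55% and 6.48% of all tested genes. DESeq2 called 6 higher and 0 lower and limma-voom 4 and 0. The list's median log2 fold change was 0.10. Clca2, Igfbp3, Ptp4a3, Ninj1 and Mgmt were those that rose. Ptp4a3, a phosphatase gene, had 219, 277 and 206 CPM in the mutants, against 128, 103 and 112 CPM in the controls, a log2 fold change of 1.03 (SE 0.13, edgeR adjusted p = 0.00248). Ninj1, whose product ruptures the membrane of dying cells, had 42.5, 44.6 and 42.3 CPM in the mutants, against 27.1, 22.3 and 24.5 CPM in the controls, a log2 fold change of 0.81 (SE 0.11, edgeR adjusted p = 0.00274). In both genes all mutants lay above all controls. Clca2, a chloride channel regulator gene, and Igfbp3, a binding protein gene for insulin-like growth factors, had log2 fold changes of 2.98 and 2.40 and were known to rise in these libraries when the list was drawn up. Mgmt, a DNA repair gene at 1.66 to 2.32 CPM in mutant and 0.627 to 1.03 CPM in control libraries, had a log2 fold change of 1.38 (edgeR, adjusted p = 0.0433).

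Cell division genes that p53 lowers through p21 and the DREAM repressor complex did not pass. Of 35 such genes, 0 were called by edgeR, DESeq2 or limma-voom, 0 had an unadjusted p under 0.05, and the groups overlapped in each. Over all tested genes, edgeR called 1.93% higher and 1.34% lower. At an unadjusted p under 0.05, 7.55% of all tested genes were higher and 6.48% lower. All mutants lay above all controls in 11.6% of them and below in 9.04%. The 35 genes had a median log2 fold change of 0.062 and a range of -0.19 to 0.23, with 26 positive and 9 negative. Bub1b and Plk1, with the smallest p of the list, had log2 fold changes of 0.17 and 0.22. Mki67, a marker of dividing cells, stood at 465, 405 and 443 CPM in the mutants, against 426, 409.8 and 547 CPM in the controls. It was among the 9 negative genes, with a log2 fold change of -0.076. The summed level of the list was 3456 to 3730 CPM in mutant and 2893 to 4157 CPM in control libraries, with control replicate 2 lowest and control replicate 3 highest of the 6.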

How the data were processed

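RNA of CD31-selected lung cells was sequenced in 3 mutant and 3 control libraries, grouped by the sample titles. The authors deposited raw counts per gene symbol, per library and as 1 table, and 0 values differed between both forms. Per the submitters' processing notes the build was mm10, and DESeq2 is named with no role. The sources used here do not name the aligner, counting tool or annotation. Reads with no feature (53.9% to 58.2% of each library) and ambiguous reads (0.288% to 0.366%) were left out. The floor of 3 counts was 0.140 to 0.214 CPM and covers counting error only. Replicates of a group differed by more than sampling noise (chi-square per degree of freedom at least 12.3).

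In R 4.3.3, edgeR 4.0.16 kept 14934 genes with filterByExpr, scaled by TMM and ran the robust two-sided quasi-likelihood F test on all 6 libraries, with Benjamini-Hochberg adjustment over all genes tested and a threshold of 0.05. Each SE is the size of the log2 fold change over the square root of F. CPM used TMM-scaled library sizes. RPKM used the union of exons in GENCODE M21 (GRCm38, the assembly of mm10). The lists by name held 234 symbols, all matched, 1 through an older symbol. The members and lists were chosen with earlier results of these data known. The genes named were all members, Smad4, the called genes of each list with the smallest p and the sex genes; others were named after their values were seen.

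Alternatives were DESeq2 1.42.0, limma-voom (limma 3.58.1), RLE and upper-quartile factors, no low-count filter, a replicate block, sex as a covariate and leaving out each library. The fit was tested on simulated data, where edgeR recovered 39.4% of 1.5-fold, 66.7% of 2-fold and 90.8% of 4-fold changes, with 17 false calls. A gene that did not pass may therefore still differ by such amounts.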

Additional observations from a re-analysis of the deposited data

How the results depend on the processing

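Of the 8 genes called higher, Eda2r, Trp53i11, Dglucy, Zmat3, Aen and Ccng1 were called in all 14 alternatives run, with adjusted p up to 0.0456, while Bbc3 and Phlda3 lost their call in 7 each. The count of p53 target genes called higher was 6 to 9 without one library and 7 to 10 with another tool, scaling, filter, block or covariate, and the count called lower was 0 in each. The count over all genes was 488, and it was 755 in DESeq2 and 211 to 428 without one library (211 without mutant replicate 2, 293 without control replicate 2, 325 without control replicate 3). With the replicate block it was 466, with 8 p53 target genes higher, Gtse1 in place of Phlda3. Same-numbered libraries correlated at -0.012, 0.016 and 0.18 in their deviations from group means, and not every library correlated best with its own number, so the numbers were not taken to pair the samples. Leaving out both male libraries, an alternative chosen after seeing the data, gave 6 p53 target genes higher and 415 genes in all. No called gene changed direction. Among genes that did not pass, Tnfrsf10b had log2 fold changes of 0.019 in limma-voom, 0.0031 with the replicate block, 0.020 without mutant replicate 2, 0.086 without mutant replicate 3 and 0.18 without control replicate 2, against -0.011. Trp53 had -0.043 without mutant replicate 1, -0.13 without control replicate 1 and -0.21 in the female libraries, where Btg2 had -0.13 and Apaf1 -0.026. Btg2 had -0.026 without mutant replicate 1, and Plk3 0.087 without control replicate 2. The cause of these shifts was not tested. Without one library each, the log2 fold change ran from -0.13 to 0.13 for Trp53, -0.026 to 0.35 for Btg2, -0.50 to 0.087 for Plk3 and -0.18 to 0.18 for Tnfrsf10b.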

Other observations

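Beside Bax, Bbc3 and Pmaip1, 14 genes of the BCL2 family were tested, of which 2 were higher, 0 lower and 12 did not pass, beside 1.93% and 1.34% of all tested genes. Bid and Bcl2l11 of this list also stand among the further p53 targets, and neither passed. The list had a median log2 fold change of 0.13. At an unadjusted p under 0.05 there were 3 higher and 0 lower, where 7.55% and 6.48% of all tested genes were. DESeq2 and limma-voom called 2 higher and 0 lower each. Bok, which encodes an effector related to Bax, had 44.9, 49.6 and 31.9 CPM in the mutants, against 19.9, 14.8 and 20.4 CPM in the controls, a log2 fold change of 1.19 (SE 0.18, edgeR adjusted p = 0.00869). Bmf, the gene of a BCL2 antagonist, had 83.0, 66.8 and 61.1 CPM in the mutants, against 48.0, 46.3 and 47.4 CPM in the controls, a log2 fold change of 0.57 (SE 0.12, edgeR adjusted p = 0.0280). In both genes all mutant libraries lay above all control libraries. The survival genes Bcl2, Bcl2l1 and Mcl1 had log2 fold changes of 0.20, 0.12 and -0.043 and did not pass.

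Of 6 tested inhibitors of cyclin-dependent kinases other than Cdkn1a, 0 were called by edgeR, DESeq2 or limma-voom. Over all tested genes, edgeR called 1.93% higher and 1.34% lower. At an unadjusted p under 0.05 there were 0 higher and 1 lower of the 6, where 7.55% and 6.48% of all tested genes were. That 1 was Cdkn1c, with 33.3, 35.4 and 33.9 CPM in the mutants, against 38.6, 44.0 and 42.8 CPM in the controls (log2 fold change -0.29, edgeR adjusted p = 0.186). Of 20 genes of the integrated stress response, which also acts on Gdf15 and Sesn2, 0 were called by edgeR, beside 1.93% higher and 1.34% lower of all tested genes. DESeq2 called 1 (Aldh18a1, higher) and limma-voom 0. At an unadjusted p under 0.05, 5 of the 20 were higher and 0 lower, where 7.55% and 6.48% of all tested genes were. Their median log2 fold change was 0.17, with 17 positive and 3 negative. Their summed level was 1593 to 1964 CPM in mutant and 1511 to 1995 CPM in control libraries, so that the groups overlapped.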
